A study of Homo sapiens with 6 samples.

Results

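The p53 target genes MDM2, CDKN1A, GDF15, TP53INP1, SESN1, ZMAT3, BBC3, BAX and FAS were examined in 786-O cells with and without stable knockdown of YB1. These 9 genes were chosen by name as well-known targets of p53, out of 20030 genes in the table. They were not chosen by value, but earlier results of these data were known at the time. Expression was measured by RNA sequencing in 786-O, an established line of human clear cell renal cell carcinoma (ccRCC) cells at passages 16 to 18. Cells of the shYB1 group carried a lentiviral small hairpin RNA (shRNA) against YB1, the protein encoded by YBX1. Vector cells carried a scrambled (nonsense) shRNA, so both groups went through lentiviral infection and puromycin selection, and RNA was taken 7 days after that selection. Each group had 3 libraries. The series' design text speaks of more than one shRNA against YB1, whereas the labels give a single shYB1 group, so its 3 libraries were taken as replicates. Nothing in the labels or methods says that the libraries of a group came from separate infections, and neither gives the p53 status of the line.

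The transcription factor p53 is activated by DNA damage and other stress and binds paired half-sites near its target genes. Its targets halt the cell cycle through p21, start apoptosis through BAX, PUMA and death receptors, or act in DNA repair and metabolism. MDM2 is both a target and the ubiquitin ligase that marks p53 for degradation, which closes a feedback loop. YB1 binds DNA at the Y-box, an inverted CCAAT motif, and also binds mRNA.

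Promoter sequence was taken from RefSeq on GRCh38.p14 for 8 of the 9 genes, over the 250 bases before each of 16 annotated transcription starts, because both p53 and YB1 are known to act at promoters. TP53INP1 is named only. A p53 site was taken as a pair of adjacent p53 consensus half-sites, 20 bases in all, with at most 2 mismatches and the central C and G of each half-site kept. The pair reads alike on both strands, and this definition was set after the sequences had been seen. It was present in 3 of the 16 promoters, of MDM2 and FAS, and the MDM2 promoters among them overlap and share the same site. It was also present in 0.242% of the 35116 promoters of the same length in the table. Because the definition followed the sequences, these shares are a description and not a test. The Y-box, spelled CCAAT or ATTGG, was found in 10 of the 16 promoters, which belong to 6 genes and in part overlap, and in 32.0% of all promoters. CDKN1A and FAS held no Y-box in these windows. The MDM2 and FAS p53 sites and the pair of BAX Y-boxes are shown because FAS and BAX are the genes whose libraries separated between groups and MDM2 carries the other p53 site. Capitals mark the matched motif, each sequence reads 5′ to 3′ on the plus strand, and a match is a description of letters and not of binding.
MDM2 p53 site, chr12:68808903-68808962: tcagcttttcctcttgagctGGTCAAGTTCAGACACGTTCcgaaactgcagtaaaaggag
FAS p53 site, chr10:88991304-88991333: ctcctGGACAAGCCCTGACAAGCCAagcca
BAX Y-box, distal, chr19:48954652-48954696: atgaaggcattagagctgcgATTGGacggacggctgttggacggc
BAX Y-box, proximal, chr19:48954707-48954751: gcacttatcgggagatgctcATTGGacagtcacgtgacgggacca
The MDM2 site began 94 bases before an internal start of the gene and had 2 mismatches to the consensus. The FAS site began 122 bases before the third of its annotated starts and also had 2 mismatches. With 20 bases on each side, it touched an annotated exon, whose gene and strand were not recorded. The Y-boxes of BAX began 203 and 148 bases before its start and do not overlap another motif searched.

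Values are FPKM, fragments scaled to transcript length and to the mapped fragments of the library, as deposited, and their totals ran from 282736 to 295887 per library. The read depth behind them is unknown. Differences are shYB1 minus vector on the log2(FPKM + 0.1) scale, tested with limma over the 10439 genes averaging 1 FPKM or more and adjusted by Benjamini-Hochberg. A gene was called at an adjusted p under 0.05, and SE is the standard error of the difference. YBX1 stood at 366, 373 and 378 FPKM in vector and at 167, 166 and 173 in shYB1. Its log2 difference was −1.14 (SE 0.031, limma adjusted p = 1.53e-08), although 30.7% of its 50-base words also occur in other genes, most often in the pseudogene YBX1P1. In bulk libraries such as these, fewer cells that express a gene and less of its mRNA per cell cannot be told apart. The median difference of all genes tested was 0.055, which median-of-ratios rescaling brought to 0.001. The kidney marker PAX8 lay between 75.6 and 78.7 FPKM, and the leukocyte and endothelial markers PTPRC, CD3E and CDH5 lay at or near 0, with vector and shYB1 means of PTPRC of 0.00195 and 0.00545. Of the 8 renal epithelial markers tested, 2 were called higher (PAX2 among them, which did not pass after that rescaling) and 1 lower (CA12). Among the other 3 markers of other cells, COL1A2 was at 0 in every library, DES averaged 0.00591 and 0.00661, and PECAM1 averaged 0.384 and 0.278 FPKM in vector and shYB1.

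Most of the p53 target genes showed no difference that passed the test after YB1 knockdown. FAS was called lower by a small margin, BAX was higher in each shYB1 library than in each vector library without passing the test, and CDKN1A, MDM2 and GDF15 were at 0.972, 1.02 and 1.03 times the control level. Of the 9 genes, 8 reached a mean of 1 FPKM and were tested, and 0 were called higher and 1 lower. Over all genes tested, limma called 25.7%, with 18.7% higher and 6.93% lower, so 1 of 8 in either direction was not above the background share. At an unadjusted p under 0.05, 1 gene was higher (BAX) and 1 lower (FAS). The share of all genes at that unadjusted threshold was not computed, so this count has no background beside it. The median difference of the 8 tested genes was 0.030, beside 0.055 over all genes, and the median absolute difference was 0.085, beside 0.11. The groups did not overlap for 2 of the 8 genes, compared with 42.6% of all genes tested.

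The levels of the 9 genes spanned a wide range, and FPKM, being per length, lets genes be set side by side. In vector cells GDF15 was highest, with CDKN1A, BAX, MDM2, BBC3, FAS, SESN1, ZMAT3 and TP53INP1 in that order below it, and the libraries of every pair of neighbours were apart. The order was the same in shYB1 cells, where the libraries of MDM2 and BBC3 overlapped.

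**Figure D1:**
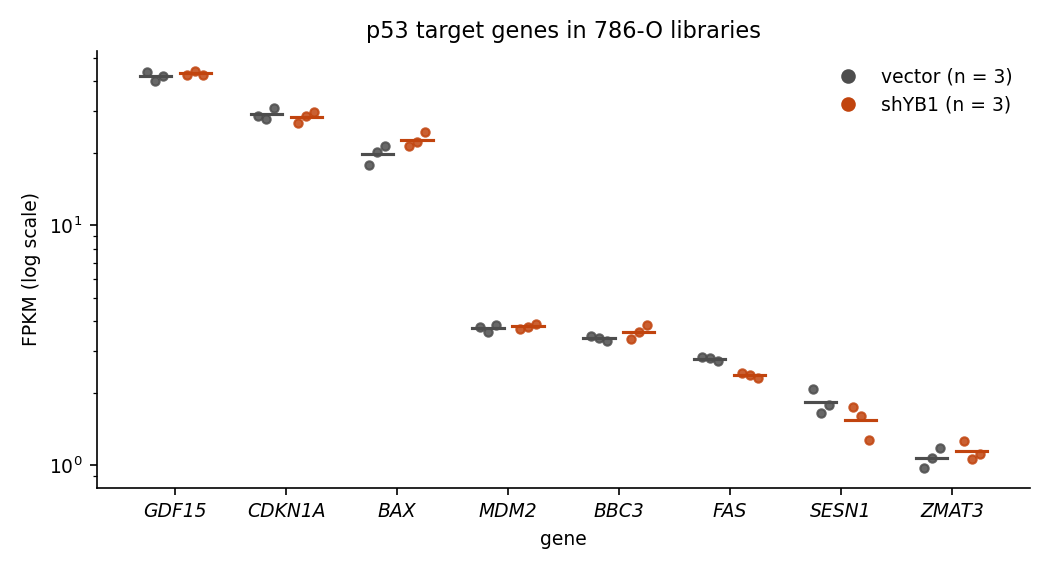
FPKM (log axis) of the 8 tested p53 target genes, with 1 point per library and a bar at the mean of the 3 vector (grey) and 3 shYB1 (orange) libraries. The shYB1 points of FAS, from 2.32 to 2.42, lie below all vector points, from 2.72 to 2.83, and those of BAX lie above, while the other genes overlap.

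MDM2 stands for the feedback arm, since its protein limits p53. Its FPKM values were 3.76, 3.60 and 3.85 in vector and 3.71, 3.77 and 3.90 in shYB1. All 6 values fell within a narrow band, and the groups overlapped. Its log2 difference was 0.022 (SE 0.063, 95% confidence interval −0.12 to 0.16, limma adjusted p = 0.829), which turned to −0.032 after median-of-ratios rescaling. The interval corresponds to a fold between 0.921 and 1.12. MDM2 lies at chr12:68808176-68850686 on the plus strand of GRCh38 (GENCODE release 29), 9.21% of its exonic bases overlap other genes, and 5.34% of its 50-base words are shared, mostly with AC025423.2.

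CDKN1A encodes p21, the inhibitor of cyclin-dependent kinases through which p53 halts the cell cycle. Its level was 28.7, 27.8 and 30.9 FPKM in vector and 26.7, 28.7 and 29.6 in shYB1. The group means of 29.1 ± 1.57 and 28.3 ± 1.5 (SD, n = 3 each) differed by less than either SD. The log2 difference of −0.041 (SE 0.052) had a 95% confidence interval of −0.16 to 0.074, or 0.898 to 1.05 as a fold, with a limma adjusted p of 0.598. The antisense gene DINOL overlaps 4.79% of its exonic bases, at chr6:36676460-36687339 on the plus strand. Without vector replicate 3 or without shYB1 replicate 1, the difference was 0.002.

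GDF15, a secreted stress cytokine of the TGF-beta family, had the highest level of the group. The vector libraries held 43.6, 40.1 and 42.0 FPKM, and the shYB1 libraries 42.5, 44.2 and 42.4. Its values overlapped throughout, and the interval of its difference was the narrowest of the 8 genes. That difference was 0.038 on the log2 scale (SE 0.040, 95% confidence interval −0.051 to 0.13, limma adjusted p = 0.519), and it was −0.017 after median-of-ratios rescaling. No annotated gene overlaps the exons of GDF15, at chr19:18374731-18389176 on the plus strand.

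The genes for metabolic and RNA control were the lowest expressed. SESN1, a sestrin that restrains mTORC1 under stress, was listed at 2.09, 1.65 and 1.79 FPKM in vector and at 1.75, 1.61 and 1.28 in shYB1. Its groups overlapped, with the lowest value in shYB1 replicate 3 and the highest in vector replicate 1. SESN1 had the largest absolute difference of the 8 genes, −0.25 on the log2 scale, and also the largest SE, 0.13. The limma adjusted p was 0.179, and the 95% confidence interval, −0.53 to 0.035, included 0. ZMAT3, a zinc finger protein that binds RNA and alters splicing, was at 0.975, 1.07 and 1.18 FPKM in vector and at 1.26, 1.06 and 1.12 in shYB1. Its difference of 0.086 on the log2 scale (SE 0.11, limma adjusted p = 0.612) came with a 95% confidence interval of −0.16 to 0.34. TP53INP1, a nuclear stress protein that promotes p53 activity and autophagy, was close to 0 in all 6 libraries. It was listed at 0.00798, 0.0168 and 0.0175 FPKM in vector and at 0, 0 and 0.0175 in shYB1, too low to be tested or given a fold. All lie on the minus strand, SESN1 at chr6:108986437-109094819, ZMAT3 at chr3:179017223-179072279 and TP53INP1 at chr8:94925972-94949411. The opposite-strand gene AL390208.1 overlaps 7.09% of SESN1 exonic bases.

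BBC3 and BAX carry the mitochondrial arm of p53-dependent cell death. BBC3 encodes PUMA, which frees BAX and its relatives from their inhibitors, and its FPKM values were 3.47, 3.38 and 3.30 in vector and 3.35, 3.60 and 3.85 in shYB1. Here 2 of the 3 shYB1 libraries lay above every vector library and 1 lay among them. The log2 difference of BBC3 was 0.085 (SE 0.072, 95% confidence interval −0.074 to 0.25, limma adjusted p = 0.417). It lies on the minus strand at chr19:47220822-47232766, where the microRNA genes MIR3190 and MIR3191 overlap 2.52% of its exonic bases.

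BAX encodes the pore-forming protein that permeabilises the outer mitochondrial membrane. The vector libraries held 17.8, 20.2 and 21.4 FPKM, and the shYB1 libraries 21.5, 22.3 and 24.5. The groups did not overlap, but the lowest shYB1 value and the highest vector value were nearly equal. The means were 19.8 ± 1.81 and 22.8 ± 1.51 FPKM (SD, n = 3 each), a difference of 0.20 on the log2 scale (SE 0.070, 95% confidence interval 0.046 to 0.36). The limma adjusted p was 0.0601, and the two-sided exact permutation test gave p = 0.10, the smallest that 3 against 3 libraries allow. Of the alternatives without a replicate block, BAX passed the threshold among genes averaging 5 FPKM or more (limma adjusted p = 0.0425), on a common total (0.0259) and without vector replicate 3 (0.0246). After median-of-ratios rescaling the difference was 0.15 and the adjusted p 0.128. BAX lies at chr19:48954815-48961798 on the plus strand, its exons overlap no other gene, and its Y-boxes lie just upstream in the sequences printed above. Y-boxes were also found in promoters of MDM2, GDF15, SESN1, ZMAT3 and BBC3, none of which was called.

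FAS is the death receptor that binds FAS ligand and starts caspase activation at the cell surface. Its level was 2.83, 2.80 and 2.72 FPKM in vector and 2.42, 2.39 and 2.32 in shYB1. Every shYB1 library lay below every vector library, and the libraries within a group differed little. The means were 2.78 ± 0.0595 and 2.38 ± 0.0543 FPKM (SD, n = 3 each). FAS fell by 0.22 on the log2 scale (SE 0.071, 95% confidence interval −0.38 to −0.064, limma adjusted p = 0.0432), which is 0.858 times the control level (0.770 to 0.957). The two-sided exact permutation test gave p = 0.10. Without a replicate block, the call was lost on a common total, with a limma adjusted p of 0.0586, and when any one of the 6 libraries was left out, with 0.0652 to 0.114. After median-of-ratios rescaling it was kept, at a difference of −0.27 and an adjusted p of 0.0206. The difference kept its sign throughout, between −0.279 and −0.165.

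FAS lies at chr10:88990582-89015785 on the plus strand, and ACTA2, a smooth muscle actin gene on the opposite strand, overlaps 8.93% of its exonic bases. Whether the libraries kept strand is not given in the sources used here, so reads over the overlap cannot be assigned with certainty. ACTA2 was listed at 2.19, 2.0 and 2.09 FPKM in vector and at 2.39, 1.78 and 1.74 in shYB1. The ACTA2 difference was −0.096 on the log2 scale (SE 0.12, limma adjusted p = 0.586), with overlapping groups, and the part of the overlap in the FAS value was not tested.

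**Figure D2:**
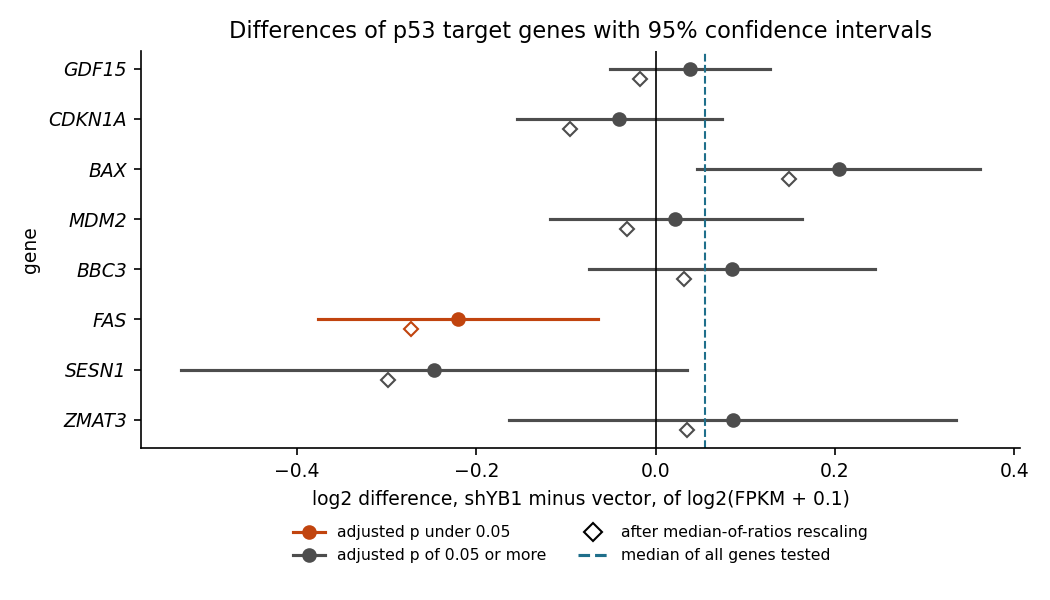
Difference between shYB1 and vector for each tested gene on the log2(FPKM + 0.1) scale, with dots for the limma estimate, bars for its 95% confidence interval (3 libraries per group), diamonds for the value after median-of-ratios rescaling and a dashed line at the median of all genes, 0.055. FAS, in orange, is the gene with an adjusted p under 0.05, and the BAX interval also lies above 0.

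**Figure D3:**
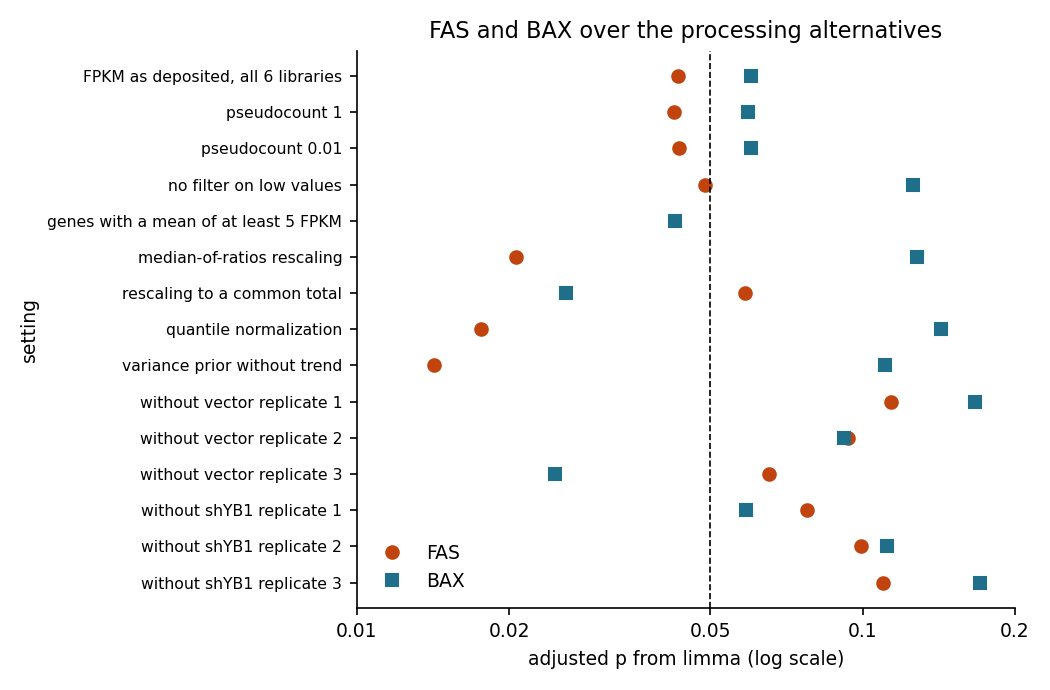
Adjusted p from limma (log axis) of FAS (circles) and BAX (squares) as deposited and under the other scalings, filters, pseudocounts, variance prior and left-out libraries, all without a replicate block, with the threshold of 0.05 as a dashed line. FAS ranges from 0.0142 to 0.114 and BAX from 0.0246 to 0.171, and both cross the threshold. FAS has no point at a mean of at least 5 FPKM, where it was not tested.

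Of 14 regulators of p53, 13 were tested, and 1 rose (7.69%, beside 18.7% of all genes) and 1 fell (7.69%, beside 6.93%). After median-of-ratios rescaling 0 were called higher and 1 lower, where 11.4% and 12.0% of all genes were. USP7, a deubiquitinase of MDM2 and p53, rose from 7.91, 8.16 and 8.97 FPKM in vector to 9.48, 9.51 and 9.74 in shYB1. Its log2 difference was 0.20 (SE 0.057, limma adjusted p = 0.0272), and after median-of-ratios rescaling the adjusted p was 0.0742. HIPK2, a kinase that phosphorylates p53, fell from 21.5, 23.5 and 22.7 FPKM to 20.1, 18.7 and 18.4. The groups of HIPK2 did not overlap, and the difference was −0.24 (SE 0.049, limma adjusted p = 0.00581), and −0.30 after rescaling with an adjusted p of 0.00184.

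DAXX, which bridges MDM2 and USP7, had a log2 difference of 0.16 (SE 0.052) and missed the threshold with a limma adjusted p of 0.0508. PPM1D, the phosphatase WIP1 that is itself a p53 target, had a difference of 0.23 (SE 0.11) with an adjusted p of 0.143. Its shYB1 libraries all lay above the vector libraries, as did those of DAXX. CHEK2, the checkpoint kinase, had a difference of −0.16 (SE 0.085, adjusted p 0.205). The inhibitor MDM4, the kinase ATM, the ligases COP1 and RCHY1, the adaptor TP53BP1 and the acetyltransferases KAT5 and EP300 had log2 differences between −0.045 and 0.066, with limma adjusted p from 0.630 to 0.933. CDKN2A, whose product ARF inhibits MDM2, was listed at 0 in all 6 libraries.

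A further 66 p53 targets were set out in 5 lists by role, and 51 of them were tested. In these lists 12 genes rose (23.5%, beside 18.7% of all genes) and 5 fell (9.80%, beside 6.93%). After median-of-ratios rescaling 10 rose and 10 fell, where 11.4% and 12.0% of all genes did. Their median difference was 0.055, equal to that of all genes, and their median absolute difference was 0.14. The remaining 15 were under 1 FPKM, of which 2, EDA2R and CPT1C, were listed at 0 in every library.

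Among the targets for cell cycle arrest, 2 of 6 tested rose (33.3%, beside 18.7% of all genes) and 1 fell (16.7%, beside 6.93%). GADD45A, which inhibits CDK1 and takes part in DNA repair, rose from 77.3, 85.1 and 81.9 FPKM to 103, 95.2 and 101 (log2 difference 0.29, SE 0.044, limma adjusted p = 0.00118). E2F7, a repressor of E2F target genes, rose from 8.08, 8.43 and 8.11 FPKM to 10.8, 11.3 and 10.1 (0.38, SE 0.054, adjusted p = 0.000874). CCNG1, cyclin G1, which acts on MDM2, fell from 84.4, 87.5 and 88.4 FPKM to 69.4, 70.2 and 69.1 (−0.32, SE 0.032, adjusted p = 0.000107). The groups did not overlap for any of these genes, as for 42.6% of all genes tested. BTG2 and RPRM were under 1 FPKM, and BTG2 averaged 0.879 ± 0.110 in vector and 0.677 ± 0.0288 in shYB1 (SD, n = 3 each).

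Of 15 tested death targets, 4 rose (26.7%, beside 18.7% of all genes) and 3 fell (20%, beside 6.93%). AEN, a nuclease of apoptotic DNA degradation, rose from 1.17, 1.27 and 1.36 FPKM to 1.79, 1.94 and 1.73, and its log2 difference of 0.49 (SE 0.096, limma adjusted p = 0.00463) was the highest of the 51 targets. PHLDA3, a repressor of AKT, rose by 0.24 (adjusted p = 0.00465), PMAIP1, which encodes NOXA, by 0.22 (adjusted p = 0.00204) and DRAM1, a lysosomal membrane protein of autophagy, by 0.205 (adjusted p = 0.0370). DRAM1 was no longer called after median-of-ratios rescaling, nor was KITLG, the KIT ligand, in the list of other roles. TNFRSF10D, a decoy receptor for TRAIL that lacks a functional death domain, fell from 14.0, 15.3 and 14.2 FPKM to 9.90, 10 and 9.66 (−0.55, SE 0.049, adjusted p = 5.35e-05), the lowest difference of the 51. PERP, a membrane protein of desmosomes and apoptosis, changed by −0.26 (adjusted p = 0.00146), and STEAP3, an endosomal ferrireductase, by −0.18 (adjusted p = 0.00448). The 5 death targets under 1 FPKM were TNFRSF10C, TP53I3, TP53AIP1, EDA2R and SPATA18. TNFRSF10B, the TRAIL death receptor DR5, averaged 35.0 ± 1.20 FPKM in vector and 35.0 ± 1.30 in shYB1 (SD, n = 3 each), and was looked up after its value was known.

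None of the 7 DNA repair targets passed the limma test in either direction, and 0 did at an unadjusted p under 0.05, with differences between −0.085 and 0.11. None of the 6 tested metabolic targets passed it either, although at an unadjusted p under 0.05 there were 2 higher and 1 lower. No share of all genes was computed at that unadjusted threshold. After median-of-ratios rescaling 2 metabolic targets were called lower, FUCA1 and ALDH4A1, where 12.0% of all genes were. TIGAR, GLS2 and CPT1C were under 1 FPKM, and TIGAR was listed at 0.405, 0.438 and 0.458 FPKM in vector and at 0.668, 0.880 and 0.750 in shYB1. Its libraries did not overlap, but it was below the level set for testing. SESN2, the paralogue of SESN1, had a difference of 0.19 (SE 0.067, adjusted p = 0.0610).

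Of the 17 tested targets with other roles, 6 rose (35.3%, beside 18.7% of all genes) and 1 fell (5.88%, beside 6.93%). KLF4, a transcription factor of epithelial differentiation, rose from 6.82, 7.31 and 6.26 FPKM to 9.07, 8.43 and 8.39 (0.34, SE 0.065, limma adjusted p = 0.00431). The tetraspanin CD82 rose by 0.30 (adjusted p = 0.00291) and the HSP110-family chaperone HSPA4L by 0.28 (adjusted p = 0.00765). IER5, an immediate-early gene, fell from 58.4, 54.1 and 58.8 FPKM to 43.1, 48.5 and 50.1 (−0.28, SE 0.057, adjusted p = 0.00746). The groups did not overlap for any of these 4 genes, as for 42.6% of all genes tested. These 4 were named because they were called, so their separation adds no support. The 5 genes of this list under 1 FPKM were TP53I11, ACER2, SYTL1, PRDM1 and TRIM22.

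**Figure D4:**
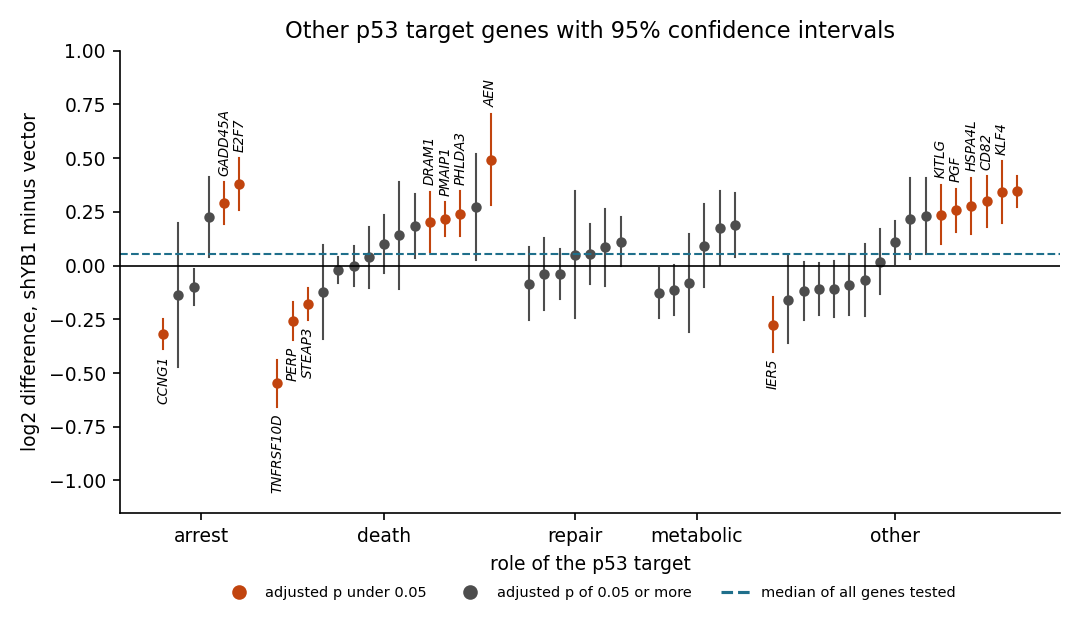
Difference between shYB1 and vector on the log2(FPKM + 0.1) scale for the 51 tested further p53 targets, ordered within 5 roles, with 95% confidence intervals (3 libraries per group), the called genes in orange, most of them named, and the median of all genes as a dashed line. Called genes lie on both sides of 0, from TNFRSF10D at −0.55 to AEN at 0.49, and none lies in the repair or metabolic lists.

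Cell cycle genes known to be repressed through p21 and the DREAM complex were set beside CDKN1A. Of 22 such genes, all tested, 9 rose (40.9%, beside 18.7% of all genes) and 0 fell (beside 6.93%). At an unadjusted p under 0.05 limma gave 11 higher and 0 lower, with no share of all genes computed at that threshold. BUB1, a kinase of the spindle checkpoint, rose from 20.8, 20.8 and 20.3 FPKM to 25.9, 23.9 and 24.3 (0.26, SE 0.042, limma adjusted p = 0.00178). CCNB1, cyclin B1, rose by 0.21 (adjusted p = 0.00325), CDC20, the activator of the anaphase-promoting complex, by 0.21 (adjusted p = 0.00619) and PLK1, a mitotic kinase, by 0.19 (adjusted p = 0.0131). Their median difference was 0.11, and 0.051 after median-of-ratios rescaling, under which 7 rose and 1 fell, TOP2A, beside 11.4% and 12.0% of all genes. E2F1 and CENPF were the called genes that no longer passed after rescaling. CDKN1A itself, given above, overlapped between the groups.

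**Figure D5:**
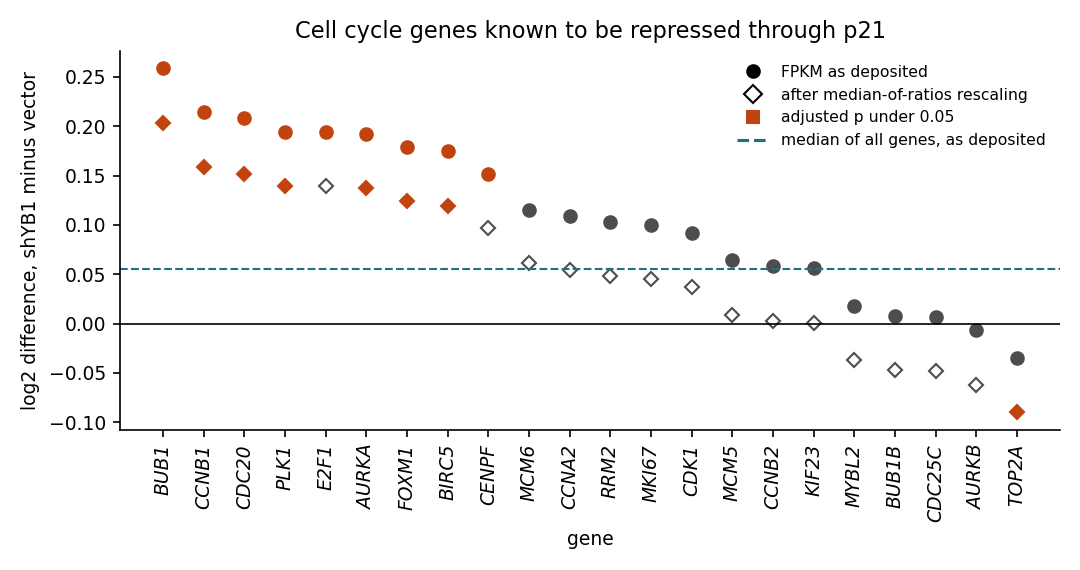
Difference between shYB1 and vector on the log2 scale for the 22 cell cycle genes, as deposited (circles) and after median-of-ratios rescaling (diamonds), in orange where the adjusted p was under 0.05. The 9 called genes as deposited run from BUB1 at 0.26 to CENPF at 0.15, and TOP2A is the one called lower after rescaling.

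The deposited table also assigns genes to the KEGG p53 signaling pathway, a list taken up after the files had been seen. It holds 72 genes, of which 26 are among the 9 and the 66 genes above, and 61 were tested. Of these 13 rose (21.3%) and 4 fell (6.56%), beside 18.7% and 6.93% of all genes. The median difference was 0.055, as over all genes, and median-of-ratios rescaling gave 13 higher and 11 lower, where 11.4% and 12.0% of all genes were called.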

How the data were processed

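RNA from 3 vector and 3 shYB1 libraries of 786-O cells was sequenced. The authors deposited FPKM per gene and library, and 0 per-library columns were left unused. The submitters' processing notes name Trimmomatic, HISAT2, Cufflinks, HTSeq, DESeq and GRCh38, without versions. FPKM depends on the transcript length used and on the few most abundant genes, and holds no counts, so depth is unknown and no counting interval was computed. Groups came from the library titles.

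FPKM was analysed as log2(FPKM + 0.1) for the 10439 of 20030 genes averaging 1 FPKM or more, with limma 3.58.1 in R 4.3.3 (trend and robust settings). Tests were two-sided and adjusted by Benjamini-Hochberg, after a check on simulated data. For sequencing, the study's methods give cutoffs on fold change and P value but name no test. With 3 libraries a group, p-values measure only the spread between these libraries, which may be technical. In limma, the variance of each gene was also moved toward a trend over all genes tested. Exact permutation tests and promoter searches used Python 3.11.15 with SciPy 1.17.1. Annotation was GENCODE release 29 on GRCh38.

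The genes named are all 9 targets, YBX1, every tested regulator, and up to 4 called genes per list and direction with the largest absolute difference. The genes, lists and tests were chosen with earlier results of these data known. Results for some genes covered by this rule are not given here. Genes named outside this rule were chosen after their values were seen. The alternatives were other pseudocounts, filters, scalings, a variance prior without trend, a replicate block and each library left out.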

Additional observations from a re-analysis of the deposited data

How the results depend on the processing

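Over 15 alternatives, the direction of SESN1, ZMAT3, BBC3, BAX and FAS was kept wherever they were tested, and YBX1 was called in all 15. Median-of-ratios rescaling gave 1192 genes higher and 1253 lower, and quantile normalization 1267 and 1184, instead of 1956 and 723. The same settings gave 10 and 9 of the further p53 targets lower instead of 5, and the former 1 of the 22 cell cycle genes lower instead of 0. Among the 9 p53 targets, the mean of at least 5 FPKM (where FAS was not tested), the common total and the replicate block each gave 1 higher (BAX) and 0 lower. Leaving out each library in turn gave 0 to 1 higher, the 1 being BAX without vector replicate 3, and 0 lower in every case. MDM2 turned to −0.032 after median-of-ratios rescaling and −0.038 after quantile normalization, GDF15 to −0.017 after the former. With a library left out, MDM2 ranged from −0.003 to 0.043 and CDKN1A from −0.073 to 0.002. Deviations of same-numbered libraries correlated between −0.17 and −0.0082, against −0.051 to 0.11 for different numbers, so the numbers were not taken to pair the libraries. With the replicate block, all-gene calls were 2074 higher and 760 lower, the limma adjusted p of BAX was 0.00764 and that of FAS 0.0665. The cause of each change was not tested. The unknown depth limits TP53INP1 and the other genes under 1 FPKM, for which no change can be read.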
